A study of Mus musculus and Homo sapiens with 4 samples.

Results

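Small nucleolar RNAs (snoRNAs) and small Cajal body RNAs (scaRNAs) were examined in the RNA sequencing of VCaP and VCaP ERα cells. Every entry with a symbol that starts with SNORD, SNORA or SCARNA was taken, which gave 356 of the 25932 entries listed for these libraries. By symbol, 237 were C/D box snoRNAs (SNORD), 95 were H/ACA box snoRNAs (SNORA) and 24 were scaRNAs (SCARNA). Of these entries, 329 were intervals of at most 500 bp that carry only snoRNA or scaRNA symbols, 6 carried such symbols over a longer interval, and 21 joined a snoRNA or scaRNA with another gene, so that their value is mostly that of the longer transcript.

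VCaP is a prostate cancer cell line. VCaP ERα is described as the same line with oestrogen receptor alpha (ERα) stably overexpressed from the plasmid pcDNA3.1-ERα, and the labels give passages 5 to 6 for VCaP and 4 to 5 for VCaP ERα. Total RNA was depleted of ribosomal RNA with Ribo-Zero and sequenced with dUTP marking of the strand, without selection for poly-A tails. Each condition has 1 library, so no difference below has a replicate check, and no test between the conditions was possible. The 2 other libraries of the series, from mouse embryonic fibroblasts, were not used here.

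The values are RPKM, which scale the reads of an entry by its length and by the depth of the library. In what follows, values joined by "and" or "to" are given for VCaP first and VCaP ERα second. ESR1, which encodes ERα, was listed at 15.7 and 209 RPKM. The 10 prostate luminal markers examined (among them KLK3, HOXB13 and ERG) lay between 0 and 8.18 RPKM in the library labelled VCaP, with KLK4 listed at 0, and between 19.8 and 694 RPKM in VCaP ERα. The 10 luminal breast markers had medians of 200 and 6.22 RPKM, and 9 of the 10 were lower in VCaP ERα, AGR2 being the exception. Of the 5 basal epithelial markers 3 were lower in VCaP ERα, and the summed level of the 4 fibroblast and the 3 leukocyte markers stayed between 0.0142 and 1.45 RPKM. The library labelled VCaP therefore goes against its label on the prostate markers, and the effect of ERα and a difference in the origin of the cells cannot be told apart in any comparison below. With bulk RNA, fewer cells of a kind and less RNA per cell also cannot be told apart.

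snoRNAs guide chemical changes on ribosomal RNA in the nucleolus. C/D box snoRNAs work with the methyltransferase fibrillarin and direct ribose methylation, H/ACA box snoRNAs work with the pseudouridine synthase dyskerin, and scaRNAs do either or both on spliceosomal RNAs in Cajal bodies. Most human snoRNAs lie in introns of host genes and are trimmed out of the spliced intron, so that a snoRNA and the exons of its host are made from 1 transcript but decay separately.

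Members were more often above 0 in VCaP ERα. In VCaP 182 of the 356 entries were listed at 0 and in VCaP ERα 99, with 85 at 0 in both. The median level went from 0 to 0.994 RPKM, and the number of members with at least 1 RPKM from 119 to 178. A total of 97 members (27.2%) were listed at 0 in VCaP only, against 21.6% of all entries, and 14 (3.93%) were listed at 0 in VCaP ERα only, against 1.72% of all entries. VCaP ERα had the higher value for 188 members (52.8%) and the lower value for 83 (23.3%), while over all entries 46.6% were higher and 41.2% were lower. Other short entries, the 1805 of at most 500 bp that are no member, were at 0 in VCaP only more often than the members (31.4%). Of these 1805, 2.94% were at 0 in VCaP ERα only, 33.7% were higher and 6.48% were lower. A shift towards higher values in VCaP ERα was thus not particular to the members. The 329 short intervals together summed to 444 and 815 RPKM, or 0.166% and 0.414% of the summed RPKM of the library.

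For the log2 ratio, 1 RPKM was added to each value and VCaP ERα was divided by VCaP, so that a positive ratio is a higher value in VCaP ERα. The added 1 RPKM shrinks the ratios of low entries. The 9754 entries that reached 1 RPKM in both VCaP and VCaP ERα had a median log2 ratio of -0.59, and centring means that this median was subtracted. After centring, of the 271 members above 0 in at least 1 library 228 were higher and 43 lower, and with quantile normalization 209 and 62. Centring raises the ratio of every entry by 0.59, and no such split of all entries or other short entries is given here. A log2 ratio above 2 was reached by 21 members (5.9%), against 2.27% of all entries and 3.49% of the 1805 other entries of at most 500 bp. Of the 329 short member intervals, 17 lay above 2 and 5 below -2. A log2 ratio below -2 was found for 6 members (1.69%), against 6.56% of all entries and 0.72% of the other short entries. After centring, 52 members lay above 2 and 4 below -2, and with quantile normalization 38 and 5. Counts under both scalings were made for the members only, so no share of all entries or other short entries stands beside them. The members just inside the upper limit were SNORA1 (2.02) and SNORD124 (2.04), and SNORA57 (1.98) lay just outside. At the lower limit SNORD12B (-2.23) lay inside and SNORD78 (-1.99) outside.

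The median log2 ratio of each class was slightly above 0. The median was 0.08 for C/D box, 0.25 for H/ACA box and 0.13 for scaRNA entries. Members at 0 in both libraries, with a ratio of 0, are included: 71 of 237 C/D box, 11 of 95 H/ACA box and 3 of 24 scaRNA entries. With quantile normalization the scaRNA median was -0.01. Over the members above 0 in at least 1 library the order of the classes changed. There the median was 0.55 for C/D box, 0.44 for H/ACA box and 0.39 for scaRNA entries. Among the 200 members with at least 1 RPKM in at least 1 library it was 0.82 over 120 C/D box entries (82 higher, 38 lower), 0.64 over 63 H/ACA box entries (41 higher, 22 lower) and 0.39 over 17 scaRNA entries (9 higher, 8 lower). Over all 13954 entries that met the same minimum the median was -0.50, with 5020 higher and 8934 lower. A minimum that an entry can meet through 1 library only favours entries that differ, so these medians are descriptions of the members that met it. The upper limit was passed by 8 C/D box, 10 H/ACA box and 3 scaRNA entries, and the lower limit by 3, 1 and 2. Of the 219 short C/D box intervals, 4 passed the upper limit. The other C/D box entries above it were SNORD116-20, SNORD107, SNORD108 and the joined entry with IPW, all long entries of the chromosome 15 region described below. SNORA8, SNORA1, SNORA25, SNORD5 and SNORD6, also above it, share 1 containing entry, AK128061.

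**Figure D1:**
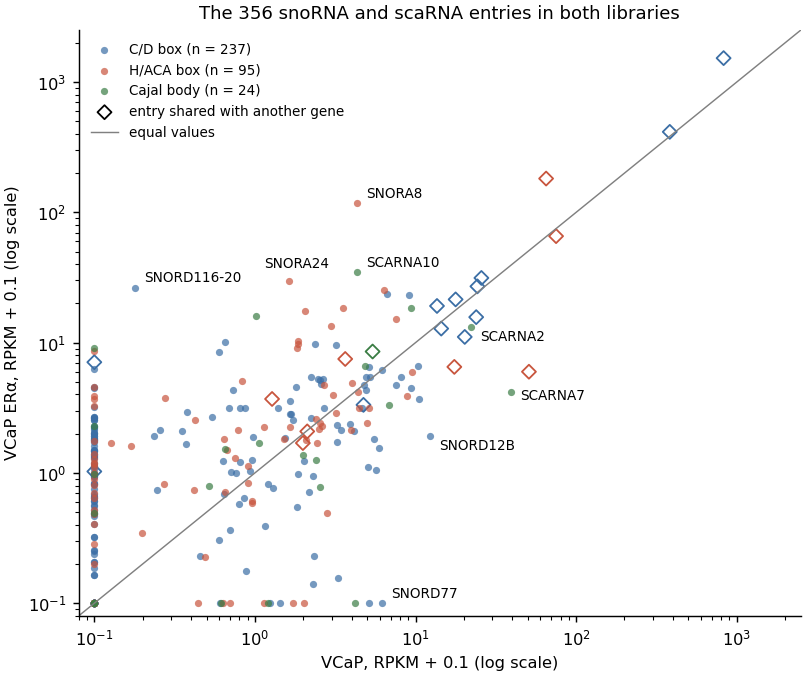
RPKM of the 356 snoRNA and scaRNA entries in VCaP (x axis) and VCaP ERα (y axis), each with 0.1 added, on log axes; points are coloured by class, open diamonds are the 21 entries shared with another gene, and points at 0.1 are entries listed at 0. Many points stand on the left edge (97 entries listed at 0 in VCaP only), fewer on the lower edge (14 at 0 in VCaP ERα only), and SNORA8, SNORA24 and SCARNA10 lie far above the line of equal values while SCARNA7 lies far below it.

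Because these RNAs are short, the RPKM of a member can rest on very little sequence. The amount could be recovered. RPKM multiplied by the length of the interval was a whole multiple of 1 of 2 fixed units in each library, within 0.08 of a whole number, for 244 of the 244 short intervals above 0 in at least 1 library. With the units of the libraries crossed, 141 of the 244 gave whole numbers. An interval above 0 in only 1 library meets the same units either way and could not fail this check. Crossing could thus fail only for the 139 intervals above 0 in both libraries. The whole numbers with the units uncrossed are the sequenced bases that fall on the interval. The read length was judged from non-member entries of known unit in a different length range from the 1805 other short entries. Among these, 108 bases was the commonest number, in 23 of 178 entries in VCaP and 50 of 304 in VCaP ERα. Next came 216 and 324 bases. All are multiples of 54, so 108 bases were taken as 1 read pair. The short C/D box intervals had a median length of 80 bp, below the 108 bases of 1 read pair. Bases on an interval inside a host may come from the trimmed RNA or from host RNA that still holds the intron. The values do not separate these, and their shares were not tested.

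In VCaP 150 short intervals with a known number of bases were above 0, with a median of 168 bases and a range of 4 to 10338. In VCaP ERα there were 214, with a range of 3 to 15920 bases. Thus 56 members in VCaP and 70 in VCaP ERα were covered by no more bases than 1 read pair, and 64 members above 0 reached no more than that in either library. More than 1080 bases, or 10 read pairs, were found for 9 members in VCaP, 19 in VCaP ERα, 22 in at least 1 library and 6 in both. The 10 most covered members held 50.1% of the bases of all these members in VCaP and 52.5% in VCaP ERα.

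The classes differed in their summed bases. The 135 C/D box intervals with known bases summed to 17663 bases in VCaP and 28968 in VCaP ERα. The 72 H/ACA box intervals went from 15171 to 56507 bases, a ratio of 3.72. The 20 scaRNA intervals went from 28875 to 35369 bases, a ratio of 1.22. Bases are not scaled by the depth of the library. In RPKM, all short intervals of a class summed to 221 and 314 for C/D box and 121 and 386 for H/ACA box. For scaRNAs these sums were 102 and 115 RPKM. The number of bases was higher in VCaP ERα for 97 C/D box, 52 H/ACA box and 11 scaRNA intervals, and lower for 38, 20 and 9. Single members weighed heavily in the sums of bases. Without SCARNA10 the scaRNA ratio was 0.816, in the opposite direction, and without SCARNA7 it was 1.77. Without the 8 snoRNAs of the entry AK128061, which are described below, the H/ACA box sums went from 13193 to 31076 bases, a ratio of 2.36. These sums were computed after the values were seen.

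The 2 units had a consequence for the ratios. With the first unit, used by 142 members, 1 base was worth 0.974 times as much RPKM in VCaP ERα as in VCaP, and with the second, used by 85 members, 0.764 times as much. A member of the second kind with equal bases in both libraries therefore has a ratio of RPKM that is 0.35 lower on the log2 scale than a member of the first kind. Members inside 1 containing entry always shared a unit (35 of 35 entries, 130 members). Whether the 2 units are those of the 2 strands was not tested, since the files give no strand.

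**Figure D2:**
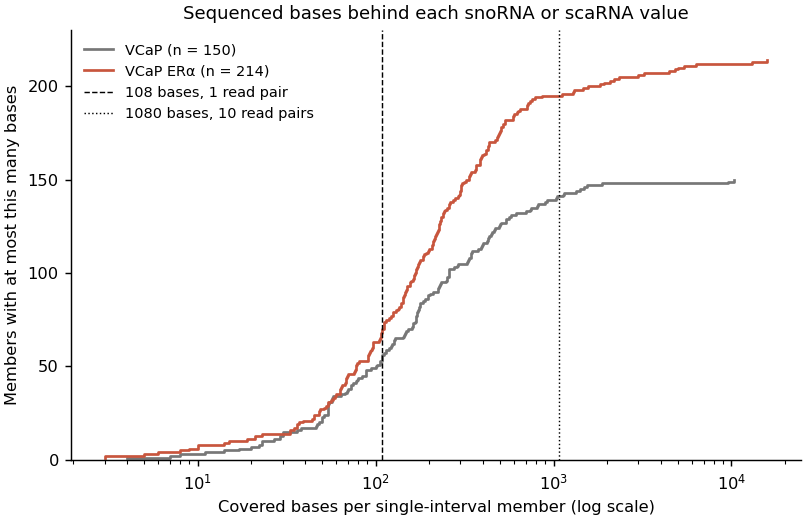
Cumulative number of short-interval members (y axis) with at most the given number of covered bases (x axis, log scale) in VCaP (n = 150) and VCaP ERα (n = 214), for members above 0 whose bases are known; vertical lines mark 108 and 1080 bases. Of the VCaP members 56 and of the VCaP ERα members 70 lie at or left of the line of 1 read pair, and 9 and 19 lie right of the line of 10 read pairs.

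Among H/ACA box snoRNAs, SNORA8 had the largest log2 ratio, and ranked 62 among all 25932 entries. SNORA8 (hg18, chr11:93105175-93105313) was listed at 4.22 RPKM in VCaP, from 435 bases, and at 118 RPKM in VCaP ERα, from 15920 bases (log2 ratio 4.51). It is 1 of 8 snoRNAs inside the entry AK128061 (chr11:93103096-93108662), and all 8 were higher in VCaP ERα.

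The other members of this array were closer to each other. SNORA18 had 6.28 and 25.1 RPKM (615 and 3217 bases, log2 ratio 1.84). SNORA25 had 3.44 and 18.2 RPKM (337 and 2336 bases, log2 ratio 2.11). The H/ACA box snoRNAs SNORA1, SNORA32 and SNORA40 had log2 ratios of 2.02, 1.88 and 1.88. Of the C/D box members, SNORD5 had 0.554 RPKM from 30 bases in VCaP and 10.1 RPKM from 713 bases in VCaP ERα, and SNORD6 was listed at 0 in VCaP and at 6.21 RPKM, from 428 bases, in VCaP ERα. The 8 members together went from 2008 to 26572 bases, while the entry that contains them went from 2.94 to 18.6 RPKM (log2 ratio 2.31). Reads on a member that falls in an exon of the containing entry would count for both, and the tables give no exons. Except for SNORA8, the members and the containing entry thus lay within a log2 ratio of 1.84 to 2.85.

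The array in GAS5 showed the opposite direction. GAS5 is a non-coding host gene whose introns hold C/D box snoRNAs, and its entry, which also carries the symbols SNORD47, SNORD80 and SNORD76, had 17.7 and 21.4 RPKM (log2 ratio 0.26). Of the 7 snoRNAs that have an entry of their own inside it, 6 were lower in VCaP ERα, and 6 were lower after centring and with quantile normalization as well. SNORD77 (chr1:172102072-172102132) had 6.12 RPKM from 277 bases in VCaP and was listed at 0 in VCaP ERα. SNORD75 had 5.05 RPKM from 225 bases in VCaP and was likewise at 0 in VCaP ERα. Both therefore lay below -2, at -2.83 and -2.60.

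The remaining GAS5 members differed by less. SNORD79 had 5.79 and 1.46 RPKM (348 and 115 bases), SNORD78 had 3.19 and 0.0572 RPKM (128 and 3 bases) and SNORD74 had 2.23 and 0.129 RPKM (119 and 9 bases). SNORD44, which is often used as a reference in assays of small RNAs, had 3.16 and 1.64 RPKM (143 and 97 bases). SNORD81 was the exception, with 2.44 and 5.03 RPKM (78 and 210 bases). Summed over the 7 snoRNAs, the level was 28.0 and 8.31 RPKM, and the bases were 1318 and 434. The containing entry was slightly higher in VCaP ERα as deposited (log2 ratio 0.26), and stood at 0.85 after centring and 0.97 with quantile normalization. All 7 snoRNAs used the second unit. Set to the first unit, the log2 ratio of SNORD44 was -0.38 in place of -0.66, that of SNORD75 -2.13 and that of SNORD77 -2.35. After centring, SNORD44 stood at -0.07, and SNORD75 and SNORD77 at -2.01 and -2.24.

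**Figure D3:**
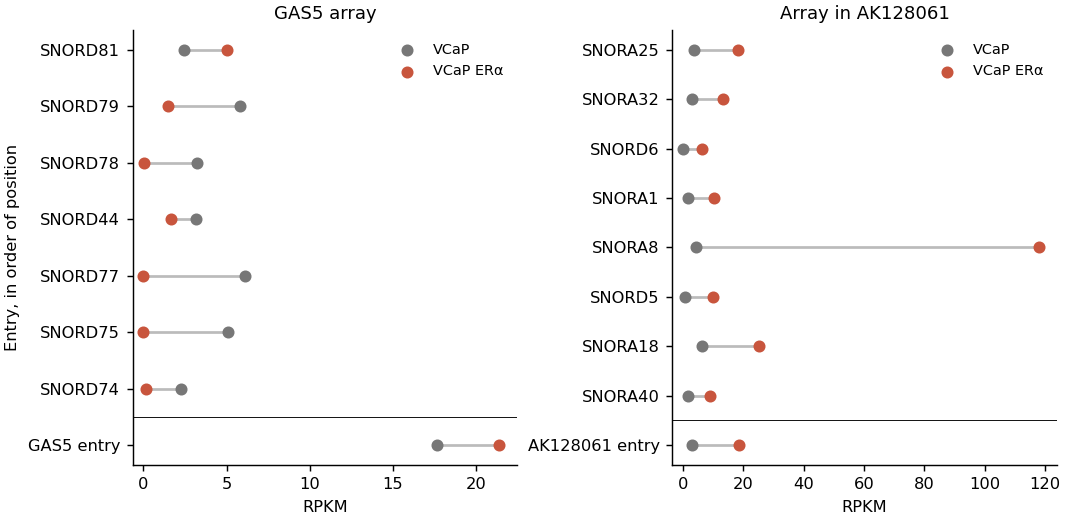
RPKM (x axis) in VCaP (grey) and VCaP ERα (red) of the snoRNAs inside GAS5 (left, 7 members) and inside AK128061 (right, 8 members), in order of position, with the containing entry in the bottom row; a line joins the values of 1 entry. Red lies left of grey for 6 of the 7 GAS5 members and right of grey for the GAS5 entry itself, whereas red lies right of grey for all 8 members of the other array, with SNORA8 at 118 RPKM.

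Other non-coding hosts gave further comparisons of a snoRNA with its host. ZFAS1, listed as C20orf199, holds SNORD12, SNORD12B and SNORD12C on chromosome 20, and its entry had 232 and 124 RPKM. All 3 snoRNAs were lower in VCaP ERα, or 2 of the 3 after centring and with quantile normalization. SNORD12B had 12.2 and 1.83 RPKM (1401 and 215 bases, log2 ratio -2.23), SNORD12 had 10.5 and 3.56 RPKM (1045 and 366 bases) and SNORD12C had 7.98 and 5.35 RPKM (700 and 482 bases). Here host and snoRNAs had the same direction. After centring, SNORD12B stood at -1.64, and with quantile normalization at -1.59.

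SNORA24 lies in the non-coding host SNHG8 on chromosome 4 and had 1.53 and 29.8 RPKM (223 and 4458 bases, log2 ratio 3.61). SNHG8 itself had 51.0 and 97.1 RPKM (log2 ratio 0.92). The snoRNA thus had the larger ratio. SNORA78, inside SNHG9, had 1.62 RPKM from 228 bases in VCaP and was listed at 0 in VCaP ERα, and SNHG9 went from 8.27 to 0.719 RPKM. The entry that joins SNHG7 with SNORA17 and SNORA43 had 50.8 and 5.88 RPKM (log2 ratio -2.91), the lowest ratio of the H/ACA class. A second entry of SNHG7, which is no member, had 17.8 and 2.25 RPKM. For SNHG1, which is joined with SNORD22, SNORD25 to SNORD27, SNORD29 and SNORD31, the values were 14.4 and 12.7 RPKM.

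Hosts that encode ribosomal proteins held 44 members in 25 entries. All 44 were above 0 in at least 1 library, 32 of them were higher and 12 lower in VCaP ERα (41 and 3 after centring, 38 and 6 with quantile normalization), and their median went from 1.84 to 2.58 RPKM. The split was near that of all 250 members above 0 with only snoRNA or scaRNA symbols. Of those, 176 were higher and 74 lower (210 and 40 after centring, 191 and 59 with quantile normalization). The 25 host entries had medians of 131 and 229 RPKM, with 21 higher and 4 lower. The snoRNA had a lower RPKM than its host in 43 of the 44 cases in VCaP and in 42 of 44 in VCaP ERα.

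Within RPL23A, SNORD42B had 3.08 and 9.45 RPKM (229 and 722 bases), and all 4 snoRNAs were higher. RPL7A and RPL13A each held 4 snoRNAs, of which 2 were higher and 2 lower as deposited, whereas all 4 were higher in each host after centring, and 4 and 3 with quantile normalization. The highest C/D box levels belonged to joined entries: GNB2L1, a ribosome-associated scaffold protein, with SNORD96A had 829 and 1528 RPKM, and RPL4 with SNORD16 had 383 and 415 RPKM. Among H/ACA box entries RPL5 with SNORA66 had 65.0 and 182 RPKM, and RPL10 with SNORA70 had 75.0 and 65.6 RPKM. RPL17 with SNORD58B (25.6 and 31.3 RPKM) and NOP56 with SNORD86 (24.2 and 26.9 RPKM) completed the 4 highest C/D box entries.

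Translation factor hosts differed in direction. EIF4A1 had 79.1 and 23.9 RPKM, and its SNORA48, SNORA67 and SNORD10 were lower too (2 of the 3 after centring and with quantile normalization), SNORA67 with 8.78 and 3.79 RPKM (1337 and 593 bases). EIF4A2 had 134 and 182 RPKM, whereas 3 of its 4 snoRNAs were lower as deposited but 1 of the 4 after centring and with quantile normalization, among them SNORD2 with 7.42 and 4.60 RPKM (577 and 367 bases). GNL3, the nucleostemin gene, had 13.5 and 64.7 RPKM, and of its 3 snoRNAs 1 was higher and 2 lower (2 and 1 after centring). SNORD19B had 1.62 and 2.43 RPKM (167 and 258 bases), SNORD19 had 1.11 and 0.727 RPKM (94 and 63 bases) and SNORD69 had 2.08 and 0.615 RPKM (178 and 54 bases).

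Compared over all hosts, the ratio of a snoRNA or scaRNA was often unlike that of the entry around it. For 207 of the 335 entries with only snoRNA or scaRNA symbols, a longer entry that is no member contained the whole interval, 135 entries in all. The log2 ratio of the member was above that of the containing entry in 125 cases and below it in 80, with a median difference of 0.30. With quantile normalization the counts were 104 above and 101 below, with a median difference of 0.04, so the excess was not kept. As deposited, the counts were 55 above and 49 below for C/D box, 54 and 27 for H/ACA box, and 16 and 4 for scaRNA entries, and with quantile normalization they were 46 and 58, 46 and 35, and 12 and 8. These counts include members at 0 in both libraries, whose deposited values fix the log2 ratio at 0. A count added after the values were seen left them out. Over the remaining 173 members, 105 lay above and 68 below as deposited. By class these were 43 and 41 for C/D box, 48 and 24 for H/ACA box, and 14 and 3 for scaRNA entries. The RPKM of the member was below that of the containing entry in 189 of the 207 cases in VCaP and in 185 in VCaP ERα.

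Of the 173 contained members above 0 in at least 1 library, 74 were higher together with their containing entry and 32 were lower together with it. In 42 cases the member was higher and the containing entry lower, and in 25 cases the reverse. With joined entries also taken as containing entries, an alternative added after the values were seen, the C/D box counts turned to 76 above and 97 below, since this brings in the arrays of GAS5 and chromosome 15. The median difference over all 279 members was then 0.14.

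**Figure D4:**
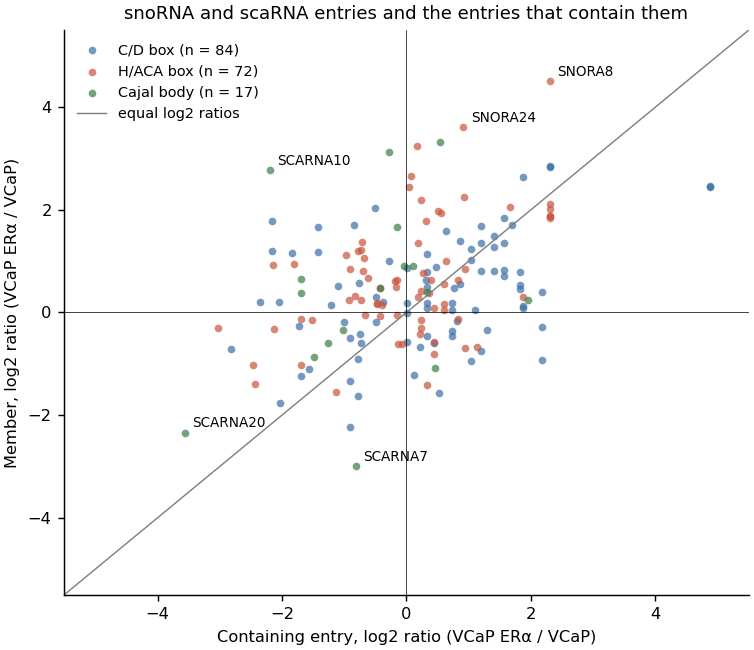
Log2 ratio of a snoRNA or scaRNA entry (y axis) against that of the shortest non-member entry that contains it (x axis), for the 173 contained members above 0 in at least 1 library, coloured by class; the diagonal marks equal ratios. SCARNA10 is higher inside a lower entry, SCARNA7 and SCARNA20 are lower inside lower entries, and SNORA8 and SNORA24 are higher than their already higher entries.

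The scaRNA class held the 2 most covered members in VCaP. In VCaP the highest was SCARNA7 (chr3:161715389-161715718, inside KPNA4), with 39.3 RPKM from 9612 bases, and in VCaP ERα it had 4.04 RPKM from 1296 bases (log2 ratio -3.00). KPNA4, an importin alpha gene, had 27.5 and 15.3 RPKM. SCARNA2 (chr1:109444338-109444757), known to be transcribed from a gene of its own and contained in no other entry here, had 22.2 RPKM from 10338 bases and 13.1 RPKM from 6294 bases (log2 ratio -0.71, or -0.12 after centring and 0.0004 with quantile normalization). SCARNA17, also contained in no other entry, had 2.42 and 0.675 RPKM (1134 and 324 bases). The first unit applies to SCARNA2 and SCARNA17 and the second to SCARNA7, whose log2 ratio with the first unit was -2.62. By bases in VCaP, these 3 led the scaRNAs that were lower in VCaP ERα.

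In the opposite direction, SCARNA10 (chr12:6489649-6489978) had 4.22 RPKM from 1546 bases in VCaP and 34.7 RPKM from 13058 bases in VCaP ERα (log2 ratio 2.77). It carries features of both C/D box and H/ACA box RNAs. Its containing entry NCAPD2, a condensin gene, was lower in VCaP ERα (14.5 and 2.38 RPKM, log2 ratio -2.20). SCARNA1, inside PPP1R8, had 0.911 and 15.8 RPKM (168 and 2992 bases, log2 ratio 3.14), and SCARNA16 was listed at 0 in VCaP and at 9.03 RPKM, from 1926 bases, in VCaP ERα. These 3 are the scaRNAs above the upper limit.

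The remaining scaRNAs lay between. SCARNA12, inside the prohibitin gene PHB2, had 9.32 and 18.3 RPKM (1867 and 4791 bases), SCARNA5 had 4.77 and 6.56 RPKM (1474 and 2079 bases), SCARNA6 had 0.548 and 1.42 RPKM and SCARNA9 had 0.964 and 1.60 RPKM. SCARNA5 and SCARNA6 lie in ATG16L1, an autophagy gene, which had 17.1 and 4.62 RPKM. SCARNA21 had 6.74 and 3.24 RPKM (1034 and 510 bases), SCARNA15 had 2.31 and 1.17 RPKM and SCARNA27 had 1.88 and 1.27 RPKM. SCARNA20 had 4.07 RPKM from 393 bases in VCaP and was listed at 0 in VCaP ERα (log2 ratio -2.34, or -1.75 after centring and -1.90 with the first unit), and its containing entry USP32 went from 70.5 to 5.03 RPKM. SCARNA8 and SCARNA18 were likewise at 0 only in VCaP ERα, from 1.11 and 0.513 RPKM in VCaP (108 and 51 bases). SCARNA4, SCARNA11 and SCARNA22 were at 0 only in VCaP, with 0.391, 2.18 and 0.884 RPKM in VCaP ERα (49, 290 and 126 bases). SCARNA3, SCARNA14 and SCARNA23 were at 0 in both libraries. SCARNA9L had 0.418 and 0.689 RPKM, and SCARNA13, joined with SNHG10, had 5.31 and 8.45 RPKM.

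Some C/D box snoRNAs are arranged as imprinted arrays of many copies. On chromosome 14, all 9 SNORD113 and all 31 SNORD114 entries were listed at 0 in both libraries. On chromosome 15, SNORD116 and SNORD115 are tandem copies downstream of SNRPN in the Prader-Willi region, made from the paternal allele and known mainly from brain. In VCaP all 23 short SNORD116 and all 35 short SNORD115 intervals were listed at 0. In VCaP ERα 18 of the SNORD116 intervals were above 0, with a median of 1.30 RPKM over the 23 and a highest value of 2.59 RPKM (SNORD116-10), and they held 2384 bases over the 21 with known bases. Of the SNORD115 intervals 25 were above 0, with a median of 0.385 RPKM, a highest value of 2.05 RPKM (SNORD115-32) and 1625 bases over the 32 with known bases. No copy had more than 307 bases.

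The longer entries of the same region had the same direction. SNORD116-20, listed over an interval of 1236 bp, had 0.0786 and 26.2 RPKM, which at a log2 ratio of 4.66 was the largest of all members. SNORD107 and SNORD108, listed over 1797 and 3373 bp, were at 0 in VCaP and at 4.43 and 4.49 RPKM in VCaP ERα. SNORD109B has 2 entries, of which the copy upstream of the SNORD116 array was at 0 and 1.40 RPKM and the copy downstream of the SNORD115 array was at 0 in both. The joined entry that holds IPW and several copies was at 0 in VCaP and at 6.98 RPKM in VCaP ERα. Upstream, SNRPN had 0.0173 and 29.0 RPKM and SNURF 0.0682 and 89.0 RPKM. The copies are near-identical in sequence, and how the authors placed reads that fit several copies is not given in the sources used here, so the value of a single copy is uncertain.

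**Figure D5:**
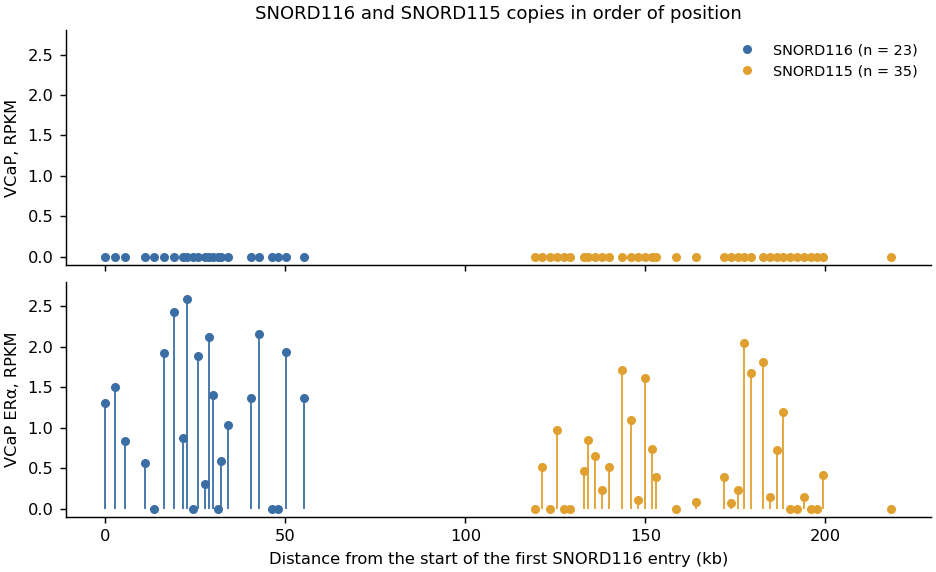
RPKM (y axis) of the 23 short SNORD116 and 35 short SNORD115 intervals in VCaP (upper panel) and VCaP ERα (lower panel) against the distance in kb from the start of the first SNORD116 interval. All points lie at 0 in VCaP, while 18 SNORD116 and 25 SNORD115 intervals lie above 0 in VCaP ERα, up to 2.59 and 2.05 RPKM.

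Further H/ACA box snoRNAs stood out by their ratio. SNORA23, inside the importin gene IPO7 (11.9 and 13.6 RPKM), was listed at 0 in VCaP and at 8.52 RPKM, from 1836 bases, in VCaP ERα. SNORA53, inside the mitochondrial phosphate carrier gene SLC25A3 (125 and 133 RPKM), had 1.94 and 17.5 RPKM (538 and 4978 bases, log2 ratio 2.65). Both hosts thus had nearly equal values while the value on the snoRNA interval was higher in VCaP ERα. At the lower end, SNORA13 had 2.71 and 0.389 RPKM (400 and 59 bases, log2 ratio -1.42), and SNORA84 had 1.93 RPKM in VCaP and was at 0 in VCaP ERα.

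Among C/D box snoRNAs outside the arrays, SNORD17, the longest short interval of its class at 237 bp, was the only one with more than 1080 bases in both libraries: it had 6.53 RPKM from 1148 bases in VCaP and 23.4 RPKM from 5385 bases in VCaP ERα (log2 ratio 1.70). It lies in SNX5, a sorting nexin gene, which was lower in VCaP ERα (18.3 and 9.77 RPKM). SNORD88C had 0.500 and 8.37 RPKM (36 and 789 bases, log2 ratio 2.64) inside C19orf48, while its neighbour SNORD88B had 4.79 and 5.31 RPKM (345 and 500 bases). SNORD48, a common reference RNA, had 0.155 RPKM from 11 bases and 2.03 RPKM from 148 bases. The reference RNAs SNORD44 and SNORD48 thus had opposite directions, on few bases. Of the 18 snoRNAs listed for their part in cleaving ribosomal RNA or their use as references, among them the SNORD3 and SNORD14 families, 14 had no entry.

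The RNAs work in particles with a small set of core proteins. Of the 8 core protein genes, 5 were higher and 3 lower in VCaP ERα (7 and 1 after centring, 6 and 2 with quantile normalization), the median log2 ratio was 0.17, and none passed 2 in either direction. On the C/D box side FBL, the methyltransferase, had 43.9 and 35.7 RPKM, NOP58 had 8.11 and 14.5 RPKM, NOP56 had 24.2 and 26.9 RPKM, and NHP2L1 had 34.6 and 39.4 RPKM. On the H/ACA box side DKC1, the pseudouridine synthase, had 12.3 and 18.6 RPKM, NOP10 had 81.8 and 122 RPKM, GAR1 had 1.28 and 1.03 RPKM, and NHP2 had 116 and 41.8 RPKM (log2 ratio -1.45). NHP2 had the largest difference of the 8 as deposited, but after centring it stood at -0.86 and NOP58 at 1.35, and the median of the 8 was 0.76.

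Of 18 genes of assembly and biogenesis, 17 had an entry, with 8 higher and 9 lower (9 and 8 after centring, 10 and 7 with quantile normalization) and a median log2 ratio of -0.49 (0.10 after centring). PARN, a deadenylase that trims the ends of H/ACA box RNAs and scaRNAs, was the only one below -2, with 14.7 and 2.11 RPKM (log2 ratio -2.34). It no longer passed the limit after centring (-1.75) or with quantile normalization (-1.67). COIL, the marker protein of Cajal bodies, had 22.3 and 8.47 RPKM, and WRAP53, which brings scaRNAs to Cajal bodies, had 2.59 and 0.397 RPKM. SHQ1 and NAF1, which act in turn on dyskerin during assembly, had 12.2 and 3.33 RPKM (SHQ1) and 2.43 and 3.16 RPKM (NAF1). NOLC1, a chaperone of these particles, had 12.0 and 24.8 RPKM, and ZNHIT3, an assembly factor of C/D box particles, had 7.79 and 22.4 RPKM.

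Other short non-coding RNAs were set beside the members, and 5 of the 9 listed had an entry. RMRP and RPPH1, the RNA parts of the RNase MRP and RNase P enzymes, had 840 and 721 RPKM (RMRP) and 1321 and 2317 RPKM (RPPH1). They lay above every short snoRNA or scaRNA interval in both libraries, whose highest values were 39.3 and 118 RPKM. The minor spliceosomal RNAs RNU11 (0.307 and 3.19 RPKM) and RNU6ATAC (0.582 and 2.04 RPKM) were low, and higher in VCaP ERα. RNU12, whose interval is longer than 500 bp, was listed at 0 in both. Over the 1805 other entries of at most 500 bp, 33.7% were higher and 6.48% lower in VCaP ERα, and 31.4% were at 0 in VCaP only against 2.94% at 0 in VCaP ERα only.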

How the data were processed

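Per the labels, total RNA of VCaP and VCaP ERα cells was depleted of ribosomal RNA and sequenced with the strand kept, with 1 library per condition. The authors deposited 1 RPKM value per entry, scaled by entry length and by mapped reads. The submitters' processing notes name CASAVA 1.8 and hg18 among tools and builds, and the aligner and read counting are not given in the sources used here. Log2 ratios used a pseudocount of 1 RPKM and an upper limit of 2, as in the study's list of higher genes, and a lower limit of -2 was set to mirror it. Nothing was filtered, and no test was made.

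Members and gene lists were chosen with earlier results of these data known. Classes followed the symbol prefix. Named members were all scaRNAs, a list of reference and cleavage snoRNAs, and in each snoRNA class the 4 highest means and the 4 largest and smallest ratios among entries with at least 1 RPKM in at least 1 library. SNORD17 and other members named for their bases or host array were chosen after their values were seen, as were the host groups. Covered bases are RPKM times interval length divided by the unit of the library, found by a grid search and least squares. Under the definition of RPKM the units imply 1.11 and 0.742 gigabases in VCaP and 1.14 and 0.971 gigabases in VCaP ERα. The total number of reads is not given in the sources used here. A containing entry was the shortest non-member entry around the whole interval. Strand was planned for this choice but is not in the tables, so position alone was used. For most listed genes the entry with that gene, or an older symbol of it, as its first symbol was used, and the highest mean where there were several. RUVBL2, TAF15 and SNHG3 were taken from entries with another first symbol (TIP49b, BC030591 and SNHG3-RCC1). The scripts were tested on simulated data. The software was Python 3.11.15 with pandas 2.3.3, numpy 2.4.6 and, for plots, matplotlib 3.10.9. No snoRNA sequence is printed, since a human genome was not used here. Some items that these rules cover are not reported here.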

Additional observations from a re-analysis of the deposited data

How the results depend on the processing

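Of 66 recomputed values, 51 stayed within 1.5 times the count or within 0.58 of the log2 median, and 15 moved further. No paired analysis was possible because each condition has 1 library. Leaving out a library was not possible for the same reason. The count above 2 was 112 with a pseudocount of 0.1 RPKM, 52 after centring and 38 with quantile normalization, against 21, and the count below -2 was 24 with the smaller pseudocount, against 6. The higher members made up 77.8% of all members past either limit as reported, 92.9% after centring and 88.4% with quantile normalization. As reported, the 1805 other entries of at most 500 bp had 63 above 2 and 13 below -2, so these were mostly higher too. All entries had 588 and 1701. These shares after centring and with quantile normalization were computed for the members only. Centring adds 0.59 to every log2 ratio, also to that of members at 0 in both libraries, among them 71 of the 237 C/D box entries. The class medians, which include these members, were then 0.67 (C/D box), 0.84 (H/ACA box) and 0.72 (scaRNA). Centring put the medians of the core and assembly proteins at 0.76 and 0.10. Quantile normalization gave 0.83 and 0.23 for these proteins, so the median of the assembly proteins (-0.49 as reported) changed sign under both. The C/D box median was 0.82 over members that reached 1 RPKM in either library, and 0.83 over intervals covered by more bases than 1 read pair, an alternative chosen after seeing the data. The number of members with a higher ratio than the entry around them was 74 of 128 with the 1 RPKM minimum and 82 of 122 with a span of at least 100 bp, against 125 of 207, and both alternatives keep fewer members. With quantile normalization it was 104 of 207. Setting the second unit to the first, also chosen after seeing the data, gave 22 members above 2 and 5 below -2. With 1 library a condition and a median of 168 bases behind a member of VCaP, the size of a difference for most single members cannot be judged.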
